A study of Mus musculus with 6 samples.

Results

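The genes described here are 6 members of the Wnt pathway, Wnt4, Fzd2, Lgr5, Wif1, Notum and Ctnnb1, in mouse bone marrow MSPCs (mesenchymal stem and progenitor cells) that lack Snai2. They were taken by symbol. A gene belonged if it was a numbered Wnt ligand, Fzd receptor, Sfrp or Dkk inhibitor or Rspo ligand, or was Ctnnb1, Wif1, Axin2, Lef1, Tcf7, Tcf7l2, Nkd1, Nkd2, Notum, Lrp5, Lrp6, Lgr4 or Lgr5, and if the authors' deposited comparison, which holds 1285 genes, listed it. The RNA-seq libraries came from about 2000 sorted cells each, 3 of Snai2-/- mice and 3 of control littermates, all 8 weeks old. The sort in both groups took cells with the nestin-driven reporter Nes-GFP and without CD45 (leukocytes), Ter119 (erythroid cells) or CD31 (endothelium). Snai2 encodes Slug, a zinc-finger repressor of the Snail family that binds E-box sequences. Per the authors' deposited table, Snai2 itself averaged 9.20 in Snai2-/- and 636 in control cells. Whether the libraries of a group stem from separate animals is not stated, so the spread behind the authors' p-values may be partly technical.

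Wnt ligands are secreted lipid-modified proteins that bind a Frizzled receptor together with an Lrp coreceptor. In the canonical branch this stops the destruction of beta-catenin, the product of Ctnnb1, which then enters the nucleus and activates genes with Tcf and Lef factors. R-spondins, acting through Lgr receptors, keep Frizzled at the cell surface, whereas Wif1, Notum, the Sfrp and the Dkk proteins hold the signal back outside the cell. In bone the canonical branch is known for favouring the osteoblast fate and bone formation, and in marrow stroma for acting on the niche of blood stem cells.

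Of the 6 genes, 5 had the higher mean in Snai2-/- cells. These were a ligand (Wnt4), a receptor for R-spondins (Lgr5), secreted inhibitors (Wif1 and Notum) and beta-catenin (Ctnnb1), whereas the Frizzled receptor gene Fzd2 had the lower mean. A gene is called listed if it stands in the authors' table, which takes an unadjusted p below 0.05. In bulk RNA, more cells of a type and more RNA per cell cannot be told apart. The genes listed as higher and as lower in Snai2-/- cells made up 3.77% and 3.91% of those tested. The median log2 ratio of Snai2-/- over control was 1.14 over the 6 genes and -0.36 over the 1285 listed genes, which divided into 631 higher and 654 lower. The limit on p leaves a gap around 0, so the value of -0.36 depends on the balance of higher and lower genes. Taken apart, the median was 1.19 for the higher and -0.81 for the lower listed genes. Without regard to sign, the median was 1.24 for the 6 and 0.94 for all listed genes. In descending order the log2 ratios were 3.39 for Notum, 1.77 for Wnt4, 1.34 for Lgr5, 0.94 for Wif1, 0.43 for Ctnnb1 and -1.14 for Fzd2. Whether neighbours in this order differ beyond the spread of the libraries was not tested, because the table holds no spread.

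**Figure D1:**
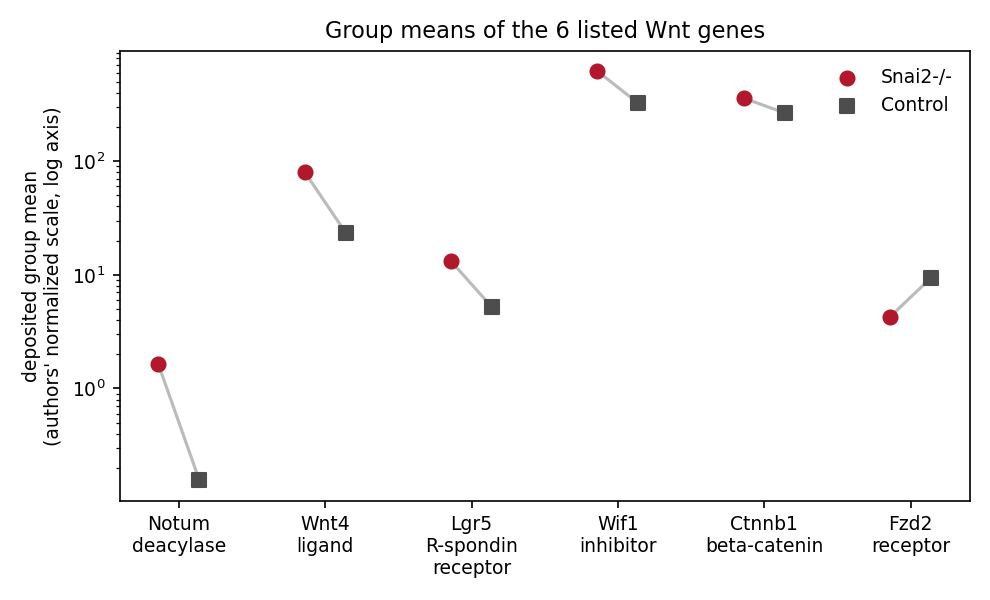
Deposited group means of the 6 listed Wnt genes on the authors' normalized scale (log axis), 1 point per group, circles for Snai2-/- and squares for control, joined by a line for each gene. The line falls toward control for Notum, Wnt4, Lgr5, Wif1 and Ctnnb1, and Fzd2 runs the other way, with 4.28 in Snai2-/- and 9.43 in control cells.

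The table gives 1 mean per group and the authors' p, with no value per library, so no spread, n or depth can be set beside a mean. The values are on a normalized scale of unstated unit. Of 54 protein-coding genes in the mouse annotation that meet the symbol rule, 6 were listed (11.1%). The authors' deposited table lists 1285 genes. These are 7.69% of 16718 genes tested, a number that was worked back from the deposited p and FDR and is not itself deposited there. Which of the other 48 genes were tested is not known, so the shares cannot be set against each other as a test. That each of the 6 has a p below 0.05 follows from how the table was made and is not a result about them. None of the 6 reached a false discovery rate (FDR, the authors' step-up adjusted p) of 0.05, a limit reached by 0.0% of the genes tested, and the authors' deposited table gives the 6 an FDR between 0.368 and 0.612. An FDR of 0.1 was reached by none of the 6 and by 0.00598% of the genes tested, Snai2 alone. An unadjusted p below 0.01 was held by 3 of the 6 listed genes, Notum, Lgr5 and Wnt4, beside 365 of all 1285 listed genes (28.4%). These 365 are 2.18% of the genes tested, and those with the higher mean in Snai2-/- cells, as Notum, Lgr5 and Wnt4 had, are 1.21%. An absolute log2 ratio of at least 1 was held by 4 of the 6 listed genes (Notum, Wnt4, Lgr5 and Fzd2), beside 590 of all 1285 listed genes (45.9%). A p below 0.05 together with such a ratio was held by 3.53% of the genes tested. With 6 genes, these shares are given as a description. Which tool gave the authors' p-values is not stated. No other tool could be run on group means.

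Wnt4 was the only ligand among the 19 Wnt genes of the annotation to be listed, beside 7.69% of all genes tested. It encodes a Wnt protein that signals through canonical and other branches, depending on the cell. In the authors' deposited table its mean was 80.1 in Snai2-/- cells, against 23.5 in control cells, a ratio of 3.41 (p = 0.00961, FDR 0.451). Among the 321 listed genes with the highest totals over the libraries, whose median absolute log2 ratio was 0.60, Wnt4 ranked 33 by absolute log2 ratio. The gene lies on chromosome 4 (GRCm38, 137277489 to 137299726, plus strand) with 5 exons, none shared with another annotated gene.
The promoter of Wnt4 is shown because Snai2 is a repressor that binds E-boxes and Wnt4 had the higher mean without it. The window, from RefSeq on GRCm38.p6 (chr4:137277385-137277684, plus strand, 250 bases before the start site to 50 after), holds 1 copy of the E-box bound by Snail proteins, in capitals, which reads CACCTG here and CAGGTG on the other strand, 15 bases before the RefSeq start site. The gene start given above, 137277489 in GENCODE, lies further upstream in this window. By that annotation the E-box lies within the gene and not before it.
Wnt4: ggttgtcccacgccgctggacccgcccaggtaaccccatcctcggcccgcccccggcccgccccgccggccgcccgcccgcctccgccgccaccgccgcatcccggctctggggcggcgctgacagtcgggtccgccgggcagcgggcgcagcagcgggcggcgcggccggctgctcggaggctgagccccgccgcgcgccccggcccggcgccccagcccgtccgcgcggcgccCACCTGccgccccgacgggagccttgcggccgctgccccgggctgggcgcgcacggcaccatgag
The same search found this E-box, on either strand, in 20.2% of all 32851 promoter windows of that length, so a copy is common, and a match does not show binding.

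Fzd2, a Frizzled receptor for Wnt ligands, was the only listed gene of the 10 numbered Fzd genes, beside 7.69% of all genes tested. It was the only one of the 6 with the lower mean in Snai2-/- cells. Its mean in the authors' deposited table was 4.28 in Snai2-/- cells, against 9.43 in control cells, a ratio of 0.454, or 2.20 times lower (p = 0.0357, FDR 0.612). It lies on chromosome 11 (GRCm38, 102604396 to 102608058, plus strand) as a single exon of 3663 bases. Its means are low, and its absolute log2 ratio of 1.14 stood beside a median of 0.96 among the 321 listed genes of like total.

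Lgr5, a receptor for R-spondins and a marker of stem cells in gut and other epithelia, is itself induced by canonical Wnt signals in the gut. Its mean in the authors' deposited table was 13.2 in Snai2-/- cells, against 5.19 in control cells, a ratio of 2.54 (p = 0.00605, FDR 0.391). These means are low. Among the 321 listed genes of like total, whose median absolute log2 ratio was 0.96, Lgr5 ranked 98 by absolute log2 ratio. The gene spans 115450311 to 115587780 on the minus strand of chromosome 10. Lgr4, its close relative, was not listed. None of the 4 numbered Rspo genes, the ligands of this receptor, was listed, nor were the coreceptor genes Lrp5 and Lrp6. With 7.69% of all genes tested listed, none of so few is no result about these genes. For a gene outside the table, a p at or above 0.05 and the lack of a test cannot be told apart.

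Wif1, a secreted protein that binds Wnt ligands and keeps them from their receptors, ranked 21 of the 1285 listed genes by total over the libraries. For all 1285 the total equals 3 times the summed group means, so it restates those means and is not a separate measure of reads. Whether the authors' scale corrects for gene length is not stated. In the authors' deposited table the mean of Wif1 was 618 in Snai2-/- cells, against 322 in control cells, a ratio of 1.92 (p = 0.0245, FDR 0.565). The group means differed by 296 units of the normalized scale. The gene lies on chromosome 10 (GRCm38, 121033960 to 121100650, plus strand), 5.58 Mb from Lgr5, with 2 other listed genes between them.
The RefSeq promoter of Wif1 (GRCm38.p6, chr10:121033754-121034053, plus strand) is shown for the same reason as that of Wnt4. It also holds 1 copy of the E-box CACCTG, in capitals, 123 bases before the start site.
Wif1: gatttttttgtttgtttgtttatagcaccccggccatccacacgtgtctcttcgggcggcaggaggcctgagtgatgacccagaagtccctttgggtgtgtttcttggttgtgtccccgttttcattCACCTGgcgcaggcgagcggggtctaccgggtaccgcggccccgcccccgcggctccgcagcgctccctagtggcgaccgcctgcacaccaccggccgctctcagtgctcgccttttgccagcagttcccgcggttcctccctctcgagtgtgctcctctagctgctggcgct

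Notum, a secreted enzyme that removes the lipid from Wnt ligands and so inactivates them, had the highest ratio of the 6 genes on little signal, at rank 1191 of the 1285 listed genes by total. In the authors' deposited table its mean was 1.64 in Snai2-/- cells, against 0.156 in control cells, a ratio of 10.5 (p = 0.00363, FDR 0.368). The difference was 1.48 units of the normalized scale. Adding 1 to both means before taking the ratio gave a log2 ratio of 1.19 in place of 3.39. Notum ranked 61 by absolute log2 ratio among the 322 listed genes with the lowest totals, where the median was 1.95. The gene lies on the minus strand of chromosome 11 (GRCm38, 120653788 to 120661175), and 38.1% of its exon bases are shared with the antisense genes Notumos and Myadml2os. The library kits named in the labels do not mark strand, so reads of these genes cannot be told from reads of Notum there. None of the 4 numbered Dkk genes and none of the 4 numbered Sfrp genes, the other extracellular inhibitors of the rule, was listed. Of all genes tested 7.69% were listed, so none of 4 is no result about either family.

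Ctnnb1 encodes beta-catenin, which carries the canonical signal into the nucleus and also links cadherins to the cytoskeleton. In the authors' deposited table its mean was 358 in Snai2-/- cells, against 265 in control cells, a ratio of 1.35 (p = 0.0249, FDR 0.57). This was the smallest absolute log2 ratio of the 6 genes, and Ctnnb1 ranked 255 by absolute log2 ratio among the 321 listed genes with the highest totals. Beta-catenin is regulated mainly by protein stability, which RNA does not measure. The gene lies on the plus strand of chromosome 9 (GRCm38, 120929216 to 120960507), and 15.1% of its exon bases overlap exons of the antisense gene Ulk4 or of Mir7090, with the same limit on strand as for Notum.
RefSeq gives 2 promoter windows for Ctnnb1, and neither holds the E-box. The window further along the gene (GRCm38.p6, chr9:120933328-120933627, plus strand) is shown for contrast with those of Wnt4 and Wif1 and has no letters in capitals.
Ctnnb1: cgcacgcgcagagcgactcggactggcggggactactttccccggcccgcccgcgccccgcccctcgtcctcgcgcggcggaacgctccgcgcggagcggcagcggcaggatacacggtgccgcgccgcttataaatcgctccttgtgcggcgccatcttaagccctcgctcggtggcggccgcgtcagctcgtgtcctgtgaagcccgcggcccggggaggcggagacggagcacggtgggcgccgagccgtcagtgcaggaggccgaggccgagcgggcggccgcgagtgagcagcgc
The core motif of Tcf and Lef factors, CTTTGAT, which reads ATCAAAG on the other strand, was in none of the windows of Wnt4, Wif1 and Ctnnb1, and in 3.73% of all windows. No match says only that these letters are not in these windows. The windows are rich in G and C, with 84.3% for Wnt4, 63.0% for Wif1 and 75.0% for the printed window of Ctnnb1, against a median of 52.7% over all windows. They hold 51, 25 and 51 CpG pairs in that order of genes, against a median of 7 over all windows. Windows of listed genes had higher medians than all windows. These were 60.7% and 19 pairs for genes higher in Snai2-/- cells, and 59.7% and 17 pairs for lower genes.

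**Figure D2:**
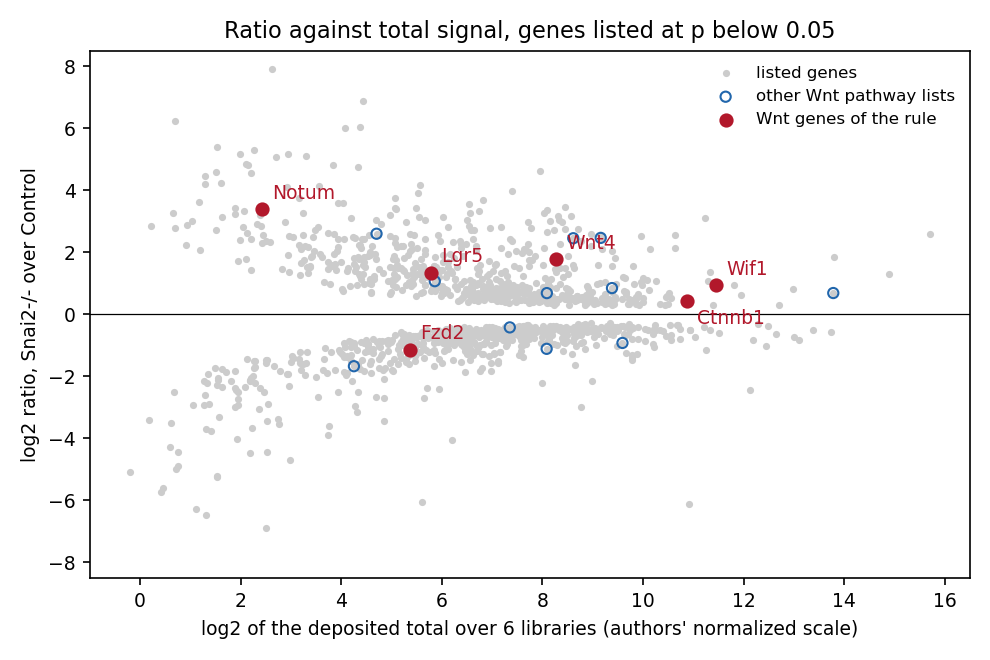
Log2 ratio of Snai2-/- over control (vertical axis) against log2 of the deposited total over the libraries (horizontal axis, authors' normalized scale) for 1278 listed genes, leaving out 7 with a group at 0.0001. Filled points are the 6 Wnt genes and open circles the 11 listed genes of the other Wnt lists. The gap around 0 follows from the limit on p. Notum lies at the left among low totals, and Wif1 and Ctnnb1 at the right.

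The canonical feedback genes Axin2, Nkd1 and Nkd2 and the nuclear factor genes Lef1, Tcf7 and Tcf7l2, which the rule also names, were not listed. The listed feedback genes were Notum and Lgr5 with the values above, and Wif1, also known as a Wnt target in some tissues.

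Other parts of the pathway were read from 7 lists of 177 further genes, of which 11 were listed (6.21%), beside 7.69% of all genes tested. The lists were chosen with earlier results of these data known, and which of their unlisted genes were tested is not known. Of the 11 listed genes, 7 were higher and 4 lower in Snai2-/- cells. Their median log2 ratio was 0.69. None reached an FDR of 0.05, and the authors' deposited table gives them an FDR between 0.336 and 0.62. No gene of the list of receptors and receptor turnover, with Ror1, Ror2, Ryk, Rnf43, Znrf3 and the Dishevelled genes among its 14, was listed.

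Of the 30 common Wnt target genes 5 were listed (16.7%), beside 7.69% of all genes tested. All 5 had the higher mean in Snai2-/- cells, and genes listed as higher were 3.77% of those tested. The median log2 ratio of the 5 was 0.85, beside 1.19 for all 631 higher listed genes. The list was chosen with earlier results of these data known, so its share and direction are no evidence of an excess. Which of the unlisted target genes were tested is not known either, and the shares are given as a description. Per the authors' deposited table, Ccnd1, a D-type cyclin that drives entry into the cell cycle, averaged 7.45 in Snai2-/- and 1.23 in control cells (ratio 6.06). Wisp1, a secreted matricellular protein of the CCN family, averaged 161 in Snai2-/- and 29.3 in control cells (ratio 5.52), per the authors' deposited table. Gja1, a connexin of the gap junctions between bone cells, averaged 2900.5 in Snai2-/- and 1803 in control cells (ratio 1.61), per the authors' deposited table. Fst, the activin antagonist follistatin, and Cd44, a receptor for hyaluronan and osteopontin, stood at ratios of 1.80 and 1.61, per the authors' deposited table. These genes answer to other signals as well as to Wnt. Myc, Ccnd2 and Tnfrsf11b, also on the list, were not listed.

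From the destruction complex and the nuclear partners, 2 separate lists, 1 gene each was listed (3.85% and 3.57%), beside 7.69% of all genes tested. Both had the lower mean in Snai2-/- cells, and genes listed as lower were 3.91% of those tested. Btrc, the F-box protein that marks phosphorylated beta-catenin for degradation, was the only listed gene of 26 of the destruction complex. Its means in the authors' deposited table were 23.3 in Snai2-/- and 31.2 in control cells, a ratio of 0.746 (p = 0.0411). Tnik, a kinase that binds Tcf factors, was the only listed gene of 28 nuclear partners, and averaged 1.52 in Snai2-/- and 4.84 in control cells (ratio 0.313), per the authors' deposited table. Apc, Axin1, Gsk3b, Bcl9 and Pygo2, of the same lists, were not listed. Outside the cell, Tpbg, a membrane glycoprotein that restrains canonical Wnt signals, was the only listed gene of 18 on its list and averaged 28.6 in Snai2-/- and 61.9 in control cells (ratio 0.462), per the authors' deposited table. Prickle1, of planar cell polarity, was the only listed gene of 41 of the polarity and calcium branches, at a ratio of 2.10 per the authors' deposited table.

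At cell junctions, where beta-catenin binds cadherins, 2 of 20 genes were listed, beside 7.69% of all genes tested. The 2 differed in direction, and of the genes tested 3.77% were listed as higher and 3.91% as lower. With so few genes, the count and the directions are no result about this list. Jup, or plakoglobin, the closest relative of beta-catenin, averaged 88.8 in Snai2-/- and 169 in control cells, per the authors' deposited table (ratio 0.527, p = 0.00223). Ctnnb1 and Jup stood on opposite sides, with log2 ratios of 0.43 and -0.92, which are given as a description. Cdh15, or M-cadherin, known from muscle, averaged 110.5 in Snai2-/- and 20.2 in control cells, per the authors' deposited table (ratio 5.47, p = 0.00297).

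**Figure D3:**
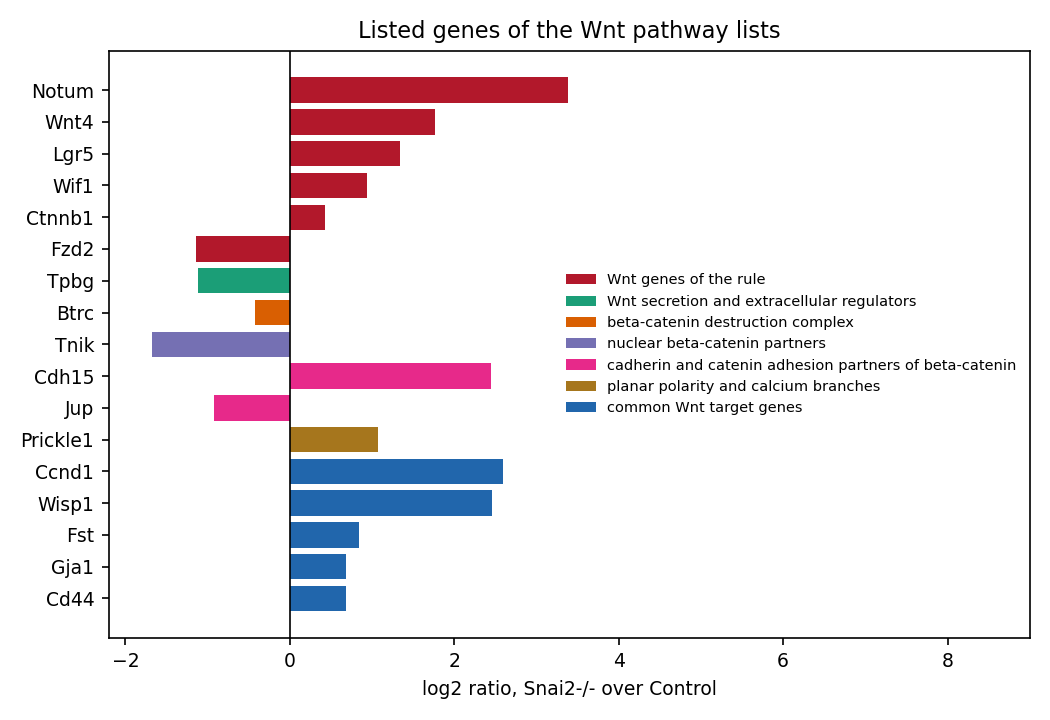
Log2 ratio of Snai2-/- over control, 1 bar per listed gene, coloured by Wnt list, with the 6 genes of the symbol rule at the top. The 5 target genes at the bottom point to the right, and Tpbg, Btrc, Tnik and Jup point to the left, as Fzd2 does.

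As a measure of likeness, each gene was set beside the 3 listed genes nearest to it by distance between their log2 means in the 2 groups. Nearest to Wif1 were Tsc22d1, P2ry14 and Alpl, at distances of 0.041, 0.29 and 0.42 in log2 units. Nearest to Wnt4 were Rmnd1, Cntn1 and Pnpla2 (0.056 to 0.23), nearest to Lgr5 were Ptk2b, Trpv4 and Ccdc69 (0.055 to 0.13), and nearest to Fzd2 were Ypel2, Cox6b2 and Ifit3 (0.093 to 0.13). Notum was nearest to Mdga2, Syt13 and Acot12 (0.14 to 0.46) and Ctnnb1 to Ginm1, Rpl4 and Ckb (0.44 to 0.58). With only 2 group means behind it, the measure matches level and ratio and nothing more.

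The makeup of the samples was read from the same table. None of the 6 Wnt genes lies on chromosome 16, which carries Snai2. Of 16 stromal marker genes only Ebf1 and Angpt1 were listed, both lower in Snai2-/- cells, with means in the authors' deposited table that summed to 336 in Snai2-/- and 534 in control cells, and Nes, Lepr and Cxcl12 were not listed, so the level of these defining genes cannot be read here. Markers of other cells were listed in the same comparison, and the sums below are over the listed genes. Of all genes tested, 7.69% were listed, 3.77% as higher and 3.91% as lower. The marker lists were chosen with earlier results of these data known, and which of the unlisted markers were tested is not known. Of 24 osteoblast genes 11 were listed, 10 higher, with means in the authors' deposited table that summed to 24270 in Snai2-/- and 6074 in control cells. Most of these sums came from Col1a1 (15244 in Snai2-/- and 2545.5 in control cells) and Spp1 (7256.7 and 2930.9), per the authors' deposited table. The lower gene was Phex, with 92.2 in Snai2-/- and 223 in control cells, per the authors' deposited table. Of 18 neutrophil and monocyte genes 7 were listed, 7 higher, with means in the authors' deposited table that summed to 820 in Snai2-/- and 186 in control cells. Of 18 chondrocyte genes 4 were listed, 4 higher, with such sums of 707 in Snai2-/- and 146 in control cells. Of 12 erythroid genes 1 (Car1) and of 8 general leukocyte genes 1 (Cd48) were listed, both higher. Of 11 pericyte and smooth muscle genes 2 (Des and Mylk) were listed, both lower, with such sums of 186 in Snai2-/- and 275 in control cells. Of 16 endothelial genes 2 were listed, Flt4 higher and Vwf lower, with such sums of 8.23 in Snai2-/- and 26.3 in control cells. None of 12 lymphocyte and none of 8 Schwann cell genes was listed. The part of these cell types in the Wnt values was not tested.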

How the data were processed

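Per the labels' protocols, libraries of sorted marrow MSPCs were built with the SMART-Seq v4 and Nextera XT kits, which mark no strand. Trim Galore, HTSeq, edgeR 3.12.0 and mm10 appear in the submitters' processing notes without roles. The file is the authors' comparison of mutant (read as Snai2-/-) with wildtype (read as control). Its columns are, per the file headers, the p-value and its step-up FDR, the ratio of the groups, a signed fold change (a score in units of fold) and least-squares means. The deposited means and totals are a normalized signal (0 of 1285 totals are whole numbers). Depth per library is unknown.

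No model could be fitted, so the authors' p-values are quoted. Log2 ratios, ranks, counts and medians were computed from the deposited means. How many genes the authors tested (16718) was worked back from the step-up FDR, rank and p. Adjusting over that number gave the deposited FDR within 0.0225%, and the step was tested on simulated data. Members, lists, motifs and named genes were chosen with earlier results of these data known. Named genes are Snai2, every member, every listed gene of the Wnt lists and the 3 genes nearest to each member (predicted genes and clones left out). Listed markers, unlisted genes and the genes of the closing section stand outside this rule, and the last were chosen after their values were seen. Genes are on GENCODE M21 (GRCm38), promoters from RefSeq (GRCm38.p6), where 3 of the 6 members matched by symbol. Python 3.11.15, numpy 2.4.6, pandas 2.3.3 and matplotlib 3.10.9 were used.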

Additional observations from a re-analysis of the deposited data

How the results depend on the processing

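The count of the 6 Wnt genes past an FDR of 0.05 was 0 and stayed 0 at an FDR of 0.1 and with a minimum group mean of 1. It was 6 at an unadjusted p below 0.05 (the limit of the table), 3 below 0.01 (Notum, Lgr5 and Wnt4, higher in Snai2-/- cells; 28.4% of listed genes passed) and 4 with an absolute log2 ratio of at least 1 (3 higher and 1 lower; 45.9% of listed genes passed). With 1 added to both means, an alternative chosen after seeing the data, Fzd2 (log2 ratio -0.98) fell short of that limit and the count was 3, all higher. For the other Wnt pathway genes the count was 0 at an FDR of 0.05 and of 0.1 and with that minimum mean, 11 at p below 0.05, 5 below 0.01 and 6 with the added limit on the ratio, or 5 with 1 added to both means. Adding 0.1 or 1 to both group means changed the log2 ratio of Notum from 3.39 to 2.76 and 1.19, and moved those of the other 5 genes and of Snai2 by less than 1.5 times, with no change of sign. No paired analysis was possible because the table holds only means of the groups. For the same reason other normalizations and tools, filters per library and left-out replicates were not run, and whether 1 library decides a value cannot be seen for any gene named. The listed ratios were selected by p, and low totals carry the largest ones, and the lowest totals of the 6 genes are those of Notum, then of Fzd2 and Lgr5.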

Other observations

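Further genes with a known link to Wnt signalling or to catenins stood in the table outside the lists. They were chosen after their values were seen, none reached an FDR of 0.05, and they stand for no group. Shisa3, an endoplasmic reticulum protein of a family that holds back Frizzled receptors in Xenopus, averaged 79.5 in Snai2-/- and 3.25 in control cells, per the authors' deposited table (ratio 24.5, p = 0.00143, FDR 0.322). Dixdc1, which binds Dishevelled, averaged 11.4 in Snai2-/- and 29.3 in control cells (ratio 0.39), per the authors' deposited table. Mcc, a protein that binds beta-catenin, and Ankrd6, or diversin, stood at ratios of 0.444 and 0.534, per the authors' deposited table. Arvcf and Pkp4, catenins of the p120 family, stood at 2.26 and 2.89, per the authors' deposited table. Looser links were looked up as well, and Psen2, Caprin2 and Cttnbp2 stood at 1.60, 0.555 and 0.533, per the authors' deposited table.

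The E-box searched in the promoters of Wnt4 and Wif1 was more frequent in windows of listed genes with the higher mean in Snai2-/- cells than in those with the lower mean. It was in 158 of 609 windows (25.9%) of higher genes and in 98 of 616 windows (15.9%) of lower genes, against 20.2% of all windows. Median G and C content was 60.7% for higher and 59.7% for lower genes. When the windows of listed genes were put into 3 bins of like size by G and C content, the shares for higher and lower genes were 19.4% and 18.9% in the lowest bin, 29.7% and 13.9% in the middle bin and 28.2% and 14.6% in the highest bin. The comparison was made after the data were seen and was not tested, genes with several start sites count more than once, and a match is not a site of binding.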
